A study of Mus musculus with 6 samples.

Results

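The genes described here make up the MHC class I antigen presentation pathway: H2-K1, H2-D1, H2-T23, B2m, Tap1, Tap2, Tapbp, Psmb8, Psmb9 and Nlrc5. They were found by exact gene symbol in the row names of the deposited tables, and all 10 were present among 55487 gene rows. The RNA came from mammary tumours of MMTV-PyMT mice, whose transgene places the polyoma middle T oncoprotein under the mouse mammary tumour virus promoter, which is active in mammary epithelium. In 3 libraries the mice had received DMHCA (so named in the titles), a steroidal compound that activates the liver X receptors (LXR), by mouth in gel cups without a break from 6 weeks of age. The other 3 libraries came from MMTV-PyMT mice labelled as vehicle controls under the same feeding protocol, so both groups carry the transgene. The sources used here give neither the age at tumour collection nor the strain.

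Nothing in the labels says whether each tumour is from a mouse of its own. The titles of each group share 1 code that differs between the groups, so a common source of each group and the treatment cannot be told apart. Each p-value therefore measures only how far these samples spread, part of which may be technical. Library totals ran from 36577451 to 42595799 expected counts. The labelled tissue was checked against 7 epithelial markers, among them Epcam, Krt8 and Krt18, whose summed level was 2650 to 3100 TPM (a level per transcript length, scaled to the same total in every library) in the agonist libraries and 2880 to 3170 TPM in the vehicle libraries. In whole tumour pieces, fewer cells of a type and less RNA per cell cannot be told apart.

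Class I molecules show peptides from inside a cell to CD8 T cells and natural killer (NK) cells. The proteasome cuts cytosolic proteins, and in its immunoproteasome form the catalytic subunits Psmb8 and Psmb9 replace the standard Psmb5 and Psmb6. The transporter Tap1 with Tap2 carries the peptides into the endoplasmic reticulum, Tapbp (tapasin) bridges it to an empty heavy chain bound to the light chain B2m, and the loaded complex moves to the cell surface. H2-K1 and H2-D1 are the classical heavy chains of the mouse, H2-T23 encodes the non-classical Qa-1 chain read by the CD94 receptors of NK cells, and Nlrc5 is a transactivator recruited to class I promoters. Loss of this pathway is a well known feature of many tumours, and interferon is its best known inducer.

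Of the 10 genes, 8 lie in or near the MHC on chromosome 17, with B2m on chromosome 2 and Nlrc5 on chromosome 8 (GENCODE M21, GRCm38). Psmb9, Tap1, Psmb8 and Tap2 follow each other between chr17:34181987 and chr17:34216321, with Tapbp (chr17:33915899-33929292) and H2-K1 (chr17:33996017-34000347) before them and H2-D1 (chr17:35262730-35267499) and H2-T23 (chr17:36029773-36032855) after them. B2m spans chr2:122147686-122153083 and Nlrc5 spans chr8:94434356-94527272. The promoter of H2-K1 is shown because its known control elements sit close together in it. That of B2m is shown because the light chain is encoded outside the MHC and yet holds some of the same letters. Both are the 250 bases before the RefSeq start on GRCm38.p6, at chr17:34000348-34000597 on the minus strand and chr2:122147437-122147686 on the plus strand, written 5′ to 3′ toward the gene. Capitals mark, in either orientation, the letters GGGGATTCCCC (a kB element), TTTCNNTTC (a core of the interferon response element), TGACG (the core of the X2 box) and the CCAAT box.
H2-K1: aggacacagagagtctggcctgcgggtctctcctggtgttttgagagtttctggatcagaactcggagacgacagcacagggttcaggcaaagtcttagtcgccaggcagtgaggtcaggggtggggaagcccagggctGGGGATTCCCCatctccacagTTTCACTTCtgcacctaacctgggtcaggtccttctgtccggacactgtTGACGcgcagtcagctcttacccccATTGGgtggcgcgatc
B2m: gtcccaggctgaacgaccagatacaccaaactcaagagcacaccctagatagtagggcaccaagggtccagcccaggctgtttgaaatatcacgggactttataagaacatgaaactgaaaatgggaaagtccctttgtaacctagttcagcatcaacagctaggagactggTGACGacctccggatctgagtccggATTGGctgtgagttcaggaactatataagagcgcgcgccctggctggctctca

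Those letters were chosen with these promoters in view, the kB letters being read from the H2-K1 window itself, and a match is a description of the sequence, not a bound site. Over 32851 RefSeq promoter windows of 250 bases, searched on both strands, GGGGATTCCCC was in 0.0304%, TTTCNNTTC in 6.31%, TGACG in 17.8% and CCAAT in 33.8%. Of the 10 genes, 8 were in the RefSeq promoter table (Tap2 and Nlrc5 were not matched). GGGGATTCCCC and TTTCNNTTC were each found in 2 of them, H2-K1 and H2-D1, TGACG in 5 and CCAAT in 7. Only these exact letters were searched, so variant spellings of an element were not counted. The B2m window, for example, reads gaaactgaaa and gggaaagtccc, which the interferon and kB letters do not match. Whether these stretches serve the same roles was not tested. The stretch from the kB element to the interferon core has the same 30-base layout in both classical heavy chain genes, at chr17:34000429-34000458 on the minus strand for H2-K1 and chr17:35262923-35262952 on the plus strand for H2-D1.
H2-K1: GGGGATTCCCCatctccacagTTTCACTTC
H2-D1: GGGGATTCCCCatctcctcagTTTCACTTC

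The X2 core, part of the module through which Nlrc5 is known to act, is shown with 10 bases on either side for H2-K1 (chr17:34000374-34000398, minus strand), H2-D1 (chr17:35262983-35263007), B2m (chr2:122147599-122147623) and Tap1 (chr17:34187460-34187484), the last 3 on the plus strand. Psmb9 holds the same letters because its window and that of Tap1 share 225 bases on opposite strands.
H2-K1: cggacactgtTGACGcgcagtcagc
H2-D1: gggacactgaTGACGcgctggcagg
B2m: aggagactggTGACGacctccggat
Tap1: cagagacaggTGACGacagagggtc

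No gene of the pathway passed the test for a difference between agonist and vehicle tumours. All 10 passed the filter on low counts. The mean was lower with agonist in 9 of the 10 genes, from -0.095 for Psmb9 to -0.61 for Tapbp on the log2 scale, with B2m at 0.17. The call rate was 0 of 10 by edgeR's quasi-likelihood test with Benjamini-Hochberg adjustment, beside 0 of 17396 genes (0.0%) over the whole table, and the adjusted p was 0.99 for 9 of the genes and 0.992 for Psmb9. At an unadjusted p under 0.05, 1 of 10 was lower with agonist (2.37% of all genes) and 0 of 10 were higher (0.719% of all genes). Over the whole table edgeR gave 538 genes at an unadjusted p under 0.05, while DESeq2 called 4 genes and limma-voom with sample quality weights 0, none of the 4 a class I pathway gene.

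The leading feature of these genes was 1 vehicle tumour. Vehicle replicate 1 had the highest CPM (counts scaled to a common library total after TMM, edgeR's trimmed-mean scaling) of the 6 libraries in 10 of 10 genes, where it was the highest for 21.8% of all genes tested. Agonist replicate 3 came second in 6 of the 10, against 17.1% of all genes. The median log2 fold change of the 10 genes was -0.33, beside -0.0049 for all genes tested, and 9 of 10 were below 0, beside 50.7% of all genes. Without vehicle replicate 1 the median was 0.15 and 4 of 10 were below 0. The plot of CPM by library shows this tumour at the top of every panel.

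**Figure D1:**
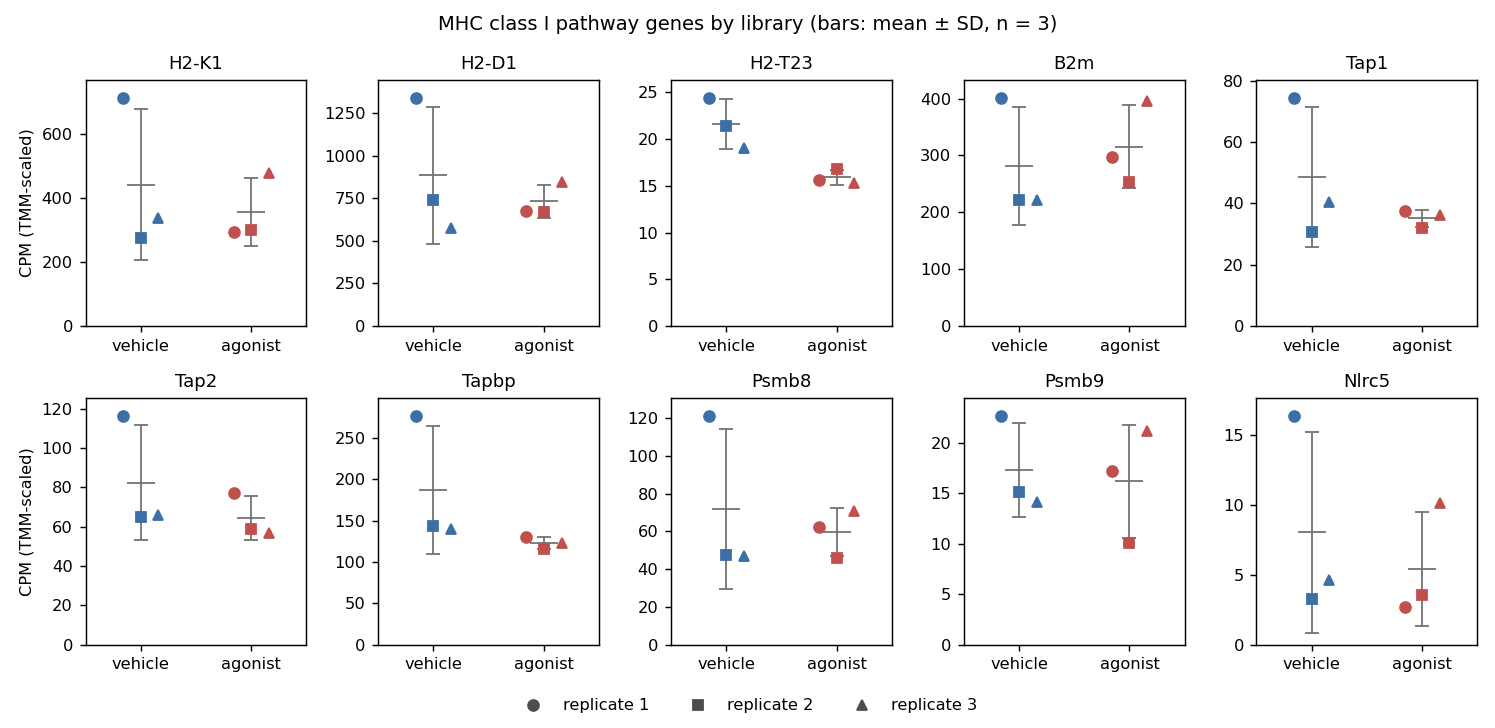
CPM (linear axis from 0) of the 10 class I pathway genes in the 3 vehicle libraries (blue) and the 3 agonist libraries (red); marker shape gives the replicate number, and horizontal lines with bars are the group mean ± SD (n = 3). Vehicle replicate 1 is the highest point in all 10 panels, and the groups do not overlap for H2-T23 and Tapbp.

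Among the heavy chains, H2-K1 stood at 293, 300 and 480 CPM with agonist and at 714, 277 and 337 CPM with vehicle. H2-D1 stood at 678, 671 and 846 CPM with agonist and at 1340, 738 and 577 CPM with vehicle. For both classical chains the groups overlapped, with vehicle replicate 1 first and agonist replicate 3 second. The log2 fold change was -0.31 ± 0.39 (SE, 95% interval -1.22 to 0.61) for H2-K1 and -0.28 ± 0.31 (-1.0 to 0.44) for H2-D1. Leaving out vehicle replicate 1 turned both, to 0.22 and 0.15.

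H2-T23, the Qa-1 chain, differed from the classical chains in that its libraries separated by group. Its CPM was 15.6, 16.8 and 15.3 with agonist and 24.4, 21.4 and 19.0 with vehicle. All 3 agonist libraries lay below all 3 vehicle libraries, which held for 2 of the 10 genes and for 4.22% of all genes tested. The reverse held for 0 of the 10 and for 3.02% of all genes. The log2 fold change was -0.44 ± 0.17 (95% interval -0.84 to -0.046, unadjusted p = 0.0331 and adjusted p = 0.99 by edgeR), and -0.35 without vehicle replicate 1. Of the 50-base windows of the H2-T23 transcript, 28.8% also occur in transcripts of other genes, with H2-T-ps sharing the most (183 of 410 shared windows), so how reads were shared with these copies bears on its level.

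B2m, the invariant light chain, was the 1 gene with a higher agonist mean. It measured 297, 253 and 396 CPM with agonist and 401, 221 and 221 CPM with vehicle, so that the highest vehicle library and agonist replicate 3 were nearly level. Its log2 fold change was 0.17 ± 0.28 (95% interval -0.50 to 0.83), and moved to 0.51 without vehicle replicate 1 or -0.033 without agonist replicate 3. None of its 50-base windows occurs in another gene.

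For the transporter genes, 1 library stood apart from the other 5. Tap1 read 37.4, 32.1 and 36.1 CPM with agonist and 74.4, 30.8 and 40.5 CPM with vehicle. Tap2 read 77.0, 58.8 and 56.9 CPM with agonist and 116, 64.9 and 66.0 CPM with vehicle. Vehicle replicate 1 was 2.10 times the mean of the other 5 libraries for Tap1 and 1.79 times for Tap2, and the groups overlapped for both. The log2 fold changes were -0.47 ± 0.31 (95% interval -1.19 to 0.26) for Tap1 and -0.36 ± 0.26 (-0.95 to 0.24) for Tap2. Without that library they were -0.019 and -0.026.

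Tapbp, the tapasin bridge of the loading complex, had the most negative value of the 10. Its CPM was 130, 115 and 123 with agonist and 276, 144 and 140 with vehicle. The agonist libraries lay below the vehicle libraries in CPM, by a narrow gap outside vehicle replicate 1. In TPM the groups overlapped, since vehicle replicate 2 at 56.9 TPM fell within the agonist range of 56.4 to 58.6 TPM. The log2 fold change was -0.61 ± 0.27 (95% interval -1.24 to 0.026, unadjusted p = 0.058 and adjusted p = 0.99 by edgeR). Without vehicle replicate 1 it was -0.21. Tapbp shares 149 exon bases with Zbtb22 on the same strand, whose counts of 1170 to 1594 were below the 4699 to 12118 of Tapbp.

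For the immunoproteasome subunits, Psmb8 measured 62.1, 46.0 and 70.9 CPM with agonist and 121, 47.4 and 47.0 CPM with vehicle. Psmb9 measured 17.2, 10.1 and 21.2 CPM with agonist and 22.6, 15.1 and 14.1 CPM with vehicle. Both had the same order of libraries, with vehicle replicate 1 first, agonist replicate 3 second and agonist replicate 2 last. The log2 fold change was -0.27 ± 0.40 (95% interval -1.22 to 0.69) for Psmb8 and -0.095 ± 0.31 (-0.82 to 0.63) for Psmb9. They turned to 0.34 and 0.15 without vehicle replicate 1, and Psmb9 also to 0.15 without agonist replicate 2. Psmb9 and Tap1 overlap by 212 exon bases on opposite strands, and no strand setting of the counts is stated, so reads from that stretch cannot be assigned to 1 of them.

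Nlrc5, the transactivator, varied most. Its CPM was 2.66, 3.51 and 10.1 with agonist and 16.3, 3.22 and 4.58 with vehicle. The highest library was 6.13 times the lowest, against 1.60 times for H2-T23, the least variable of the 10. Vehicle replicate 1 and agonist replicate 3 were its highest libraries, and the groups overlapped. Agonist and vehicle differed by -0.57 ± 0.75 on the log2 scale (95% interval -2.35 to 1.22), by 0.47 with vehicle replicate 1 left out and by -1.38 with agonist replicate 3 left out. The intervals of 9 of the 10 genes crossed 0, and those of H2-K1, Tap1, Tapbp, Psmb8 and Nlrc5 reached below -1 on the log2 scale.

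**Figure D2:**
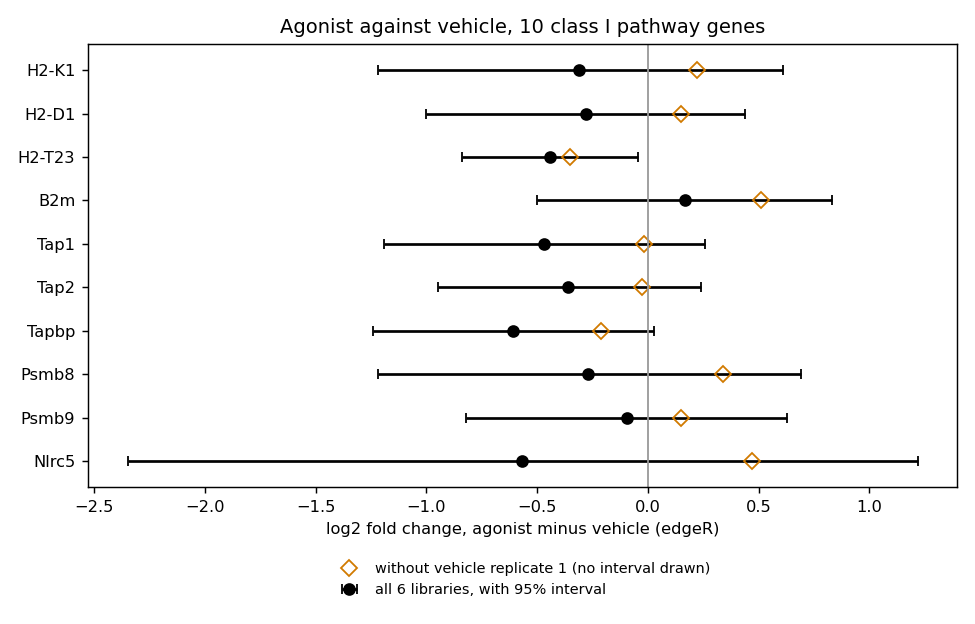
Log2 fold change of each class I pathway gene, agonist minus vehicle, from edgeR over all 6 libraries (black points with 95% intervals) and without vehicle replicate 1 (open diamonds, no interval). The value for all libraries is below 0 in 9 of 10 genes, and 4 of 10 diamonds are below 0.

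Per transcript length, the levels spanned the pathway from heavy chains to regulator. Over all 6 libraries H2-K1 averaged 802 ± 423 TPM (SD, n = 6), B2m 563 ± 189 TPM and H2-D1 503 ± 207 TPM. Psmb8 averaged 94.8 ± 46.6 TPM and Tapbp 73.8 ± 35.3 TPM, with overlapping spreads. Within libraries Psmb8 was the higher in all but vehicle replicate 3 (67.24 against 67.55 TPM). Tap2 averaged 30.5 ± 11.2 TPM, and Psmb9 (18.1 ± 5.71), Tap1 (17.2 ± 7.82) and H2-T23 (15.7 ± 3.49 TPM) lay within each other's spread. Nlrc5 was lowest at 3.39 ± 2.71 TPM. Tap2 was above Tap1 in 6 of 6 libraries, by 1.61 to 2.12 times in TPM, and Psmb8 above Psmb9 in 6 of 6, by 4.16 to 6.88 times.

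The order of the classical chains depended on the scale. H2-K1 was above H2-D1 in TPM in 6 of 6 libraries, by 1.17 to 1.83 times, whereas H2-D1 had the higher counts in 6 of 6. The effective length used in the deposited tables was 510.4 to 595 bases for H2-K1 and 1681 to 1769 bases for H2-D1, while the longest protein-coding H2-K1 transcript of GENCODE M21 has 1619 bases. The longest coding transcripts of both genes are 90.7% identical over 1581 aligned bases, and 8.79% of the 50-base windows of H2-K1 and 14.3% of those of H2-D1 occur in another gene. Class I heavy chains differ between mouse strains, and how well the reference alleles fit the alleles of these mice was not tested.

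Ratios within a library do not depend on how libraries are scaled, and 5 were tested. The TPM ratio of Psmb8 to Psmb5, the immunoproteasome subunit to the standard subunit it replaces, was 0.615, 0.415 and 0.709 with agonist and 1.53, 0.471 and 0.587 with vehicle. Vehicle replicate 1 was the 1 library in which Psmb8 exceeded Psmb5. Psmb9 to Psmb6 was 0.0464, 0.0276 and 0.0502 with agonist and 0.0596, 0.0398 and 0.0424 with vehicle. Psmb10 to Psmb7, the remaining pair, was 0.285, 0.187 and 0.312 with agonist and 0.55, 0.264 and 0.31 with vehicle. The groups overlapped for all 3 pairs. The log2 differences were -0.41, -0.21 and -0.48, with two-sided exact permutation p = 0.7, 0.6 and 0.5 (adjusted p = 0.7 over the 5 ratios for each).

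The ratio of each classical heavy chain to B2m had a lower mean with agonist. H2-K1 to B2m was 0.99, 1.28 and 1.26 with agonist and 1.9, 1.28 and 1.6 with vehicle, a log2 mean of 0.22 ± 0.21 against 0.65 ± 0.29 (SD, n = 3). H2-D1 to B2m was 0.77, 0.864 and 0.7 with agonist and 1.09, 1.09 and 0.874 with vehicle, a log2 mean of -0.37 ± 0.15 against 0.017 ± 0.18. Agonist replicate 2 and vehicle replicate 2 printed the same H2-K1 ratio, and agonist replicate 2 lay just below vehicle replicate 3 for H2-D1. The log2 differences of -0.43 and -0.38 each had a two-sided exact permutation p = 0.1, the smallest that 3 against 3 libraries allow (adjusted p = 0.25 over the 5 ratios). Leaving out 1 library at a time gave -0.58 to -0.29 for H2-K1 and -0.49 to -0.31 for H2-D1. On TMM-scaled counts in place of TPM the H2-D1 groups overlapped, at a difference of -0.39 (two-sided exact permutation p = 0.2). The plot of ratios by library shows both, beside the proteasome pairs.

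**Figure D3:**
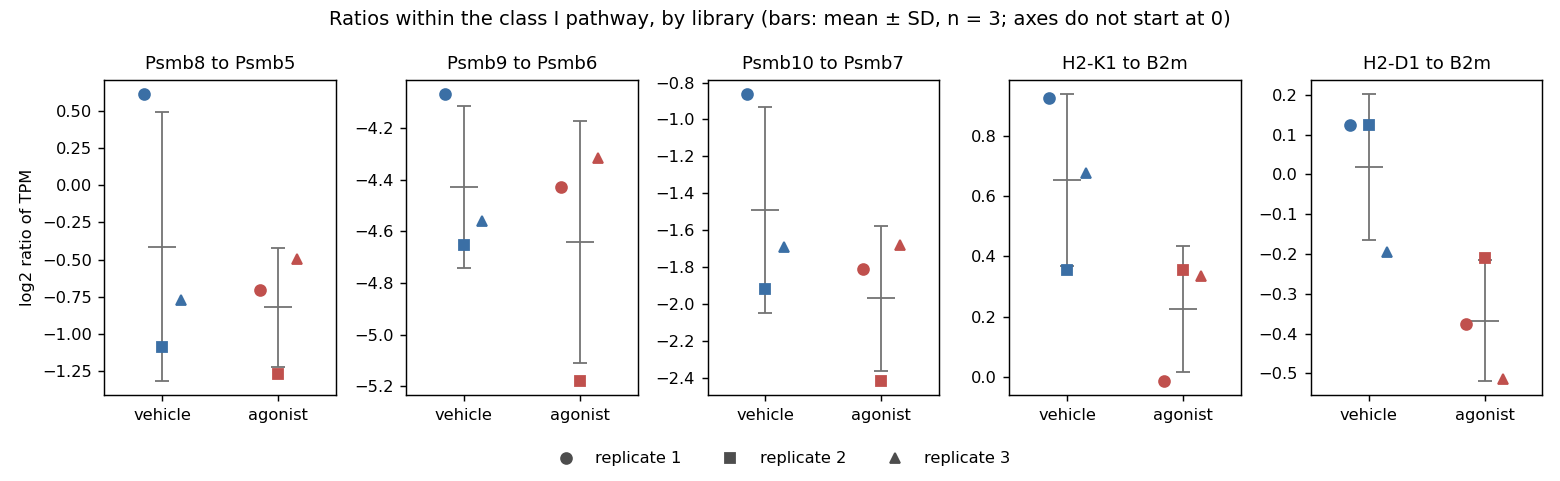
Log2 ratio of TPM for 3 immunoproteasome to standard proteasome subunits and for both classical heavy chains to B2m, by library (vehicle blue, agonist red, marker shape for replicate number, lines and bars for mean ± SD, n = 3; axes do not start at 0). The proteasome ratios overlap between groups, and the H2-D1 to B2m points of the agonist libraries lie below those of the vehicle libraries on this TPM scale, though not on TMM-scaled counts.

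The rest of the pathway was described from 8 gene lists. By edgeR with Benjamini-Hochberg adjustment, 0 genes of any list were called in either direction. The other class I heavy chains of the MHC, encoded beside the classical ones, had 10 of 13 genes tested, 10 of 10 below 0 and a median log2 fold change of -0.48, and without vehicle replicate 1 the count was 6 of 10 and the median -0.13. H2-Q4 measured 77.3, 78.9 and 85.2 CPM with agonist and 178, 92.8 and 109 CPM with vehicle. Its groups did not overlap in CPM, at -0.65 ± 0.25 (log2, unadjusted p = 0.0291, adjusted p = 0.99 by edgeR), and at -0.33 without vehicle replicate 1. All agonist libraries lay below all vehicle libraries in CPM for 3 of the 10 (H2-Q4, H2-Q10 and H2-T24) and for 4.22% of all genes tested. In TPM the groups overlapped for each of these 3. H2-Q4, for example, stood at 49.85 TPM in vehicle replicate 2 and at 51.44 TPM in agonist replicate 3. H2-Q10, a secreted chain, was low, at 0.488 to 1.17 CPM with agonist and 1.22 to 2.55 CPM with vehicle (-1.16 ± 0.49). It rested on 18.23 to 111.54 expected counts. H2-T24 stood at -0.55 ± 0.39. Many of these genes are close copies of one another, and how the counting divided reads among those is uncertain. Among the tested chains, H2-T24 and H2-M3 had whole expected counts in 6 of 6 libraries.

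Of 5 class I-like molecules encoded outside the MHC that were tested, 3 were below 0 and the median was -0.00038, and without vehicle replicate 1 the count was 4 of 5 and the median -0.11. Mr1, which presents vitamin metabolites to MAIT cells, was at -0.44 ± 0.27, Hfe, a regulator of iron uptake, at -0.12 ± 0.21, and the lipid-presenting Cd1d1 at 0.31 ± 0.56 (-0.024 without vehicle replicate 1). Vehicle replicate 1 was the highest library in 0 of these 5 genes and in 7 of the 10 MHC-encoded chains.

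Of 8 genes that serve peptide loading as helpers of the endoplasmic reticulum, all tested, 3 were below 0 and the median was 0.069. The disulfide isomerase Pdia3 (0.17 ± 0.14), the chaperone Hspa5 (0.20 ± 0.19) and the glucosidase subunit Ganab (-0.097 ± 0.15) had the smallest p-values. For Pdia3 all agonist libraries lay above all vehicle libraries in CPM. This held for 1 of the 8 helpers and for 3.02% of all genes tested. Among 7 proteasome partners 2 were below 0, with a median of 0.091. Psmb7 was at 0.26 ± 0.15, Psmb5 at 0.26 ± 0.17 and Psmb10, the remaining immunoproteasome subunit, at -0.21 ± 0.23 (-0.0031 without vehicle replicate 1). Psmb7 was the 1 partner of the 7 with all agonist libraries above all vehicle libraries in CPM. For Psmb10 vehicle replicate 1 was again the highest library, at 50.8 CPM, and agonist replicate 3 the second, at 43.2 CPM.

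Of 19 regulators of class I genes, 11 were below 0, with a median of -0.11. Without vehicle replicate 1 the count was again 11 of 19 and the median -0.0044. Rela, the NF-kB subunit, read 63.5, 74.0 and 71.9 CPM with agonist and 94.2, 89.8 and 85.1 CPM with vehicle. In CPM its groups did not overlap and vehicle replicate 1 stood close to the other vehicle libraries. In TPM the Rela groups overlapped, with vehicle replicate 2 at 38.53 and agonist replicate 2 at 41.83. For Rela the log2 fold change was -0.36 ± 0.14 (unadjusted p = 0.0289, adjusted p = 0.99 by edgeR), and -0.33 without vehicle replicate 1. Irf9, the DNA-binding part of the interferon complex ISGF3, was at -0.50 ± 0.23 (-0.22 without vehicle replicate 1), and Ezh2, the Polycomb methyltransferase known to silence class I genes, at 0.23 ± 0.13. All agonist libraries lay below all vehicle libraries in CPM for 2 of the 19 regulators and above them for 1, Ezh2. These shares were 4.22% and 3.02% of all genes tested. In TPM the Ezh2 groups overlapped. Among 9 tested interferon ligands and receptor-chain genes 3 were below 0 (median 0.083), with Tyk2 at -0.27 ± 0.17, Jak2 at 0.18 ± 0.16 and Ifngr1 at 0.18 ± 0.25. The interferon genes Ifng and Ifnb1, named after their values were seen, did not pass the filter, at 0.0 to 0.0716 CPM and 0.0 to 0.124 CPM, where a count of 0 allows up to 3 counts, or 0.0704 to 0.082 CPM of the library total.

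Interferon-stimulated genes were negative in 18 of 20 cases with a median of -0.81, and in 17 of 20 with a median of -0.39 without vehicle replicate 1. Oasl2, an antiviral synthetase-like protein, ran from 9.86 to 23.1 CPM with agonist and read 113, 18.6 and 41.8 CPM with vehicle (log2 -1.70 ± 0.68). Zbp1, a nucleic acid sensor, was at -0.79 ± 0.35 and the antiviral Mx2 at -1.09 ± 0.49. Without vehicle replicate 1 these values were -0.76 for Oasl2, -0.29 for Zbp1 and -0.69 for Mx2. Vehicle replicate 1 was the highest library in 16 of the 20 and in 10 of 10 class I pathway genes. The remaining libraries were ordered differently. Vehicle replicate 3 was among the top 2 libraries for 15 of 20 interferon-stimulated genes and for 1 of 10 class I pathway genes, where agonist replicate 3 was among the top 2 for 6 of 10 (3 of 20 interferon-stimulated genes). These shares were 36.5% and 29.9% over all genes tested.

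Each library was also summarised by the mean deviation of a list's genes from their 6-library mean, in log2 CPM. For the 10 class I pathway genes this was 0.82, -0.24 and -0.19 for vehicle replicates 1, 2 and 3, and -0.18, -0.35 and 0.14 for the agonist replicates. The other MHC class I chains gave 0.81 in vehicle replicate 1 and -0.31 to 0.042 in the remaining 5 libraries. Interferon-stimulated genes gave 0.96, -0.44 and 0.41 with vehicle and 0.10, -0.81 and -0.21 with agonist.

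Markers of immune cells, which carry high class I levels, were compared with these values. For 6 tested T and NK cell markers the mean deviation was 0.23 in vehicle replicate 1 and 0.72 in agonist replicate 3, the libraries with the highest and second highest class I values, with 0.26 and -0.53 in the other vehicle libraries and -0.29 and -0.39 in agonist replicates 1 and 2. The summed level of all 8 listed T and NK cell markers was 2.78 to 5.98 TPM with agonist and 2.43 to 4.23 TPM with vehicle. Of these 8, 0 were at 0 in all libraries. Macrophage markers, 8 of 8 tested, summed to 389 to 475 TPM with agonist and 162 to 585 TPM with vehicle, with a mean deviation of -0.16 in vehicle replicate 1 and -1.35 in vehicle replicate 3, the lowest library for 8 of 8. General leukocyte markers, 6 of 6 tested, summed to 163 to 220 TPM and 90.8 to 207 TPM, with -0.14 in vehicle replicate 1 and -1.16 in vehicle replicate 3, the lowest for 6 of 6. Dendritic cell markers (6 of 6 tested) summed to 6.75 to 10.4 TPM with agonist and 4.89 to 11.6 TPM with vehicle. The part of T and NK cells in the class I values was not tested.

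**Figure D4:**
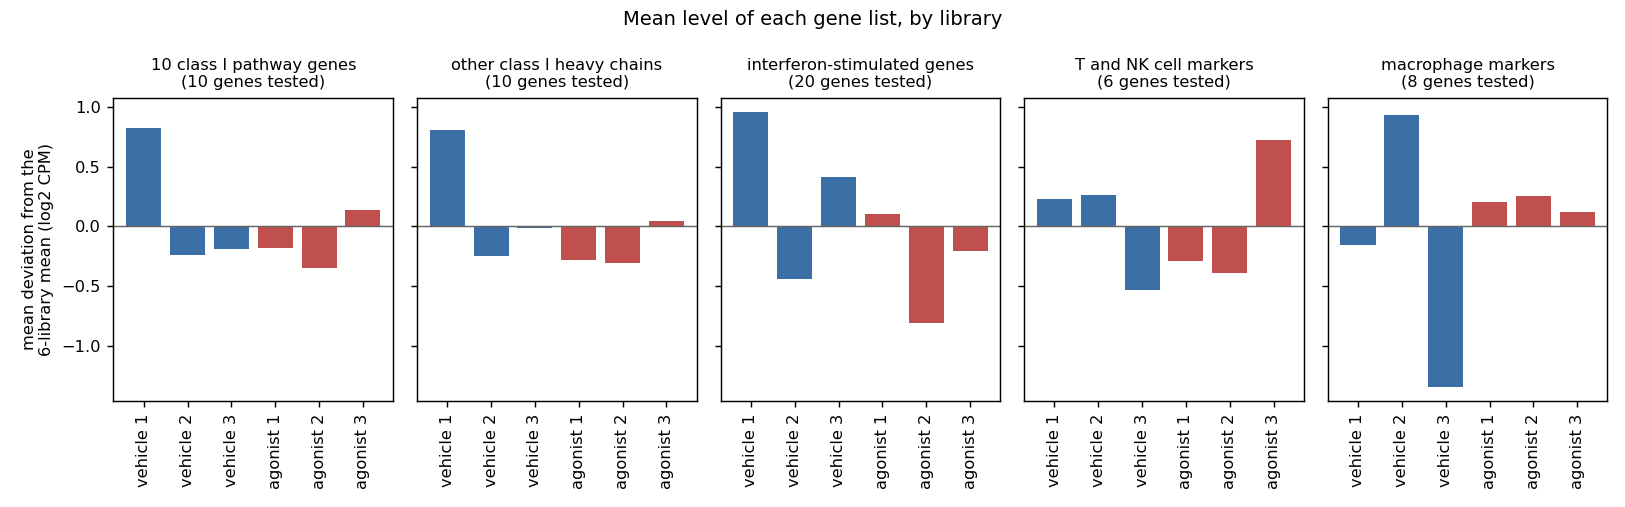
Mean deviation from the 6-library mean (log2 CPM, bars from 0) for 5 gene lists in the 3 vehicle libraries (blue) and the 3 agonist libraries (red). Vehicle replicate 1 is the highest bar for the class I pathway genes (0.82), the other class I heavy chains (0.81) and the interferon-stimulated genes (0.96), while the T and NK cell markers are highest in agonist replicate 3 (0.72) and the macrophage markers in vehicle replicate 2 (0.93).

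Receptors and effectors by which lymphocytes read class I were scarce. Of 11 listed genes 5 were tested, 3 of them below 0, with a median of -0.032. Agonist replicate 3 was the highest library in 5 of 5, beside 2225 of all 17396 genes tested. Cd3e (counts of 5 to 29) and Cd8a (13 to 59), among these 5, are also in the T and NK cell marker list. Klrd1, the CD94 chain of the receptor for the H2-T23 product, read 0.813, 0.39 and 1.1 CPM with agonist and 0.251, 0.399 and 0.0497 CPM with vehicle. The groups overlapped, at 1.71 ± 0.74 (log2, unadjusted p = 0.0501, adjusted p = 0.99 by edgeR), on counts of 2 to 46. Klrk1, the activating receptor NKG2D, was at 1.01 ± 0.73 and the granule protease Gzmb at -0.36 ± 0.45. For Klrk1, on counts of 2 to 36, all agonist libraries lay above all vehicle libraries in CPM but not in TPM. The separation in CPM held for 1 of the 5 tested genes and for 3.02% of all genes. Without vehicle replicate 3, the lowest library for Klrd1, its value was 1.24. That library was also the lowest for the leukocyte and macrophage markers above and had a mean deviation of -1.90 for 7 fibroblast markers, and their part in the Klrd1 value was not tested.

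The genes whose profile over the 6 libraries was most like the mean of the 10 were found by the root mean square difference of deviations in log2 CPM. The nearest 6 were Gm37183 (0.109), 2610037D02Rik (0.113), Tnfsf10 (0.113), H2-T22 (0.129), Gm38380 (0.13) and Rarg (0.134), where a gene with no variation would be at 0.395. Gm37183 and Gm38380 were low, at a mean of -1.23 and -1.19 log2 CPM, where counting error bears on a profile. H2-T22 is a further non-classical class I chain, Tnfsf10 encodes the death ligand TRAIL and Rarg a retinoic acid receptor. Among the 10 themselves the distance ran from 0.133 for H2-D1 to 0.599 for Nlrc5. With 6 libraries and 1 that stands apart, these distances describe the shared profile and carry no test.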

How the data were processed

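RNA sequencing tables of 6 mammary tumours (3 agonist, 3 vehicle, groups and replicate numbers from the titles) were used. The authors deposited expected counts, in which RSEM divides ambiguous reads among genes, and TPM from the same run. The tools were RSEM 1.3.1 and STAR 2.7.9a on GRCm38, with cutadapt 3.5, FastQC 0.11.9, R 4.1 and DESeq2 1.36.0, per the submitters' processing notes. Strand setting and annotation release: not given in the sources used here. The deposited FPKM were not used. In each library 10.1% to 10.5% of expected counts were not whole, and all were rounded to whole numbers.

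Genes were tested with edgeR 4.0.16 (R 4.3.3): TMM, filterByExpr (minimum count 10, minimum total 15), robust quasi-likelihood F test, no covariates, 17396 genes, Benjamini-Hochberg adjustment, threshold 0.05. The code was first tested on simulated data. TMM-scaled CPM are given per library, and log2 profiles used a prior count of 2. Ratios were tested on log2(TPM + 0.1) with exact permutation tests. Intervals are 95%, floors of 3 counts cover counting error only, and no molecular identifiers were used.

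The members and gene lists were chosen with earlier results of these data known. Genes named are the 10 members, the 3 genes of each of the 8 lists with the smallest unadjusted p, and the 6 nearest by profile. Sequences are from RefSeq (GRCm38.p6), gene positions from GENCODE M21. Alternatives were other scalings (DESeq2 1.42.0 size factors, upper quartile), no filter and a stricter one (CPM of 1 or more in 3 or more libraries), a replicate block, leaving out each library in turn, the DESeq2 test, limma-trend on log2(TPM + 1), limma-voom with sample quality weights (limma 3.58.1), a pseudocount of 1.0, and counts in place of TPM for ratios.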

Additional observations from a re-analysis of the deposited data

How the results depend on the processing

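No change of scaling, filter or test tool turned the direction of any of the 10 class I pathway genes, and none of them was called under any alternative. DESeq2 called 4 genes over the whole table where edgeR called 0. Genes at an unadjusted p under 0.05 numbered 538 by edgeR, 1211 by limma-voom with sample quality weights, 847 with no filter, 394 by limma-trend on log2(TPM + 1), 2442 without vehicle replicate 2 and 315 without agonist replicate 3. Leaving out 1 library at a time moved the median of the 10 genes from -0.51 (without vehicle replicate 3) to 0.15 (without vehicle replicate 1), and the number with a lower agonist mean from 4 (without vehicle replicate 1) to 10 (without agonist replicate 3). The same ranges were -0.58 to 0.22 for H2-K1, -0.51 to 0.15 for H2-D1, -0.033 to 0.51 for B2m, -0.50 to 0.34 for Psmb8, -0.34 to 0.15 for Psmb9 and -1.38 to 0.47 for Nlrc5, each of which changed sign, and -0.53 to -0.35 for H2-T23, -0.71 to -0.019 for Tap1, -0.51 to -0.026 for Tap2 and -0.78 to -0.21 for Tapbp, which did not. The Psmb8 to Psmb5 ratio ran from -0.74 to 0.11 and turned without vehicle replicate 1, and the Psmb9 to Psmb6 ratio ran from -0.37 to 0.054 and turned without agonist replicate 2; the cause was not tested. Whether the replicate numbers pair the samples is not known. Same-numbered libraries had correlations of deviations of 0.17, 0.04 and 0.06. For agonist replicates 1 and 3 these were the highest, while agonist replicate 2 correlated best with vehicle replicate 3 (0.05). Such small values do not settle the question. With the replicate block 0 genes were called, 488 were at an unadjusted p under 0.05 and the median of the 10 genes was -0.26. Of the 10 genes, 0 were at an unadjusted p under 0.05 with the block. For the interferon-stimulated genes named above, the block moved the unadjusted edgeR p from 0.0435 to 0.00491 for Oasl2. It moved from 0.0593 to 0.0079 for Mx2, and from 0.055 to 0.0549 for Zbp1. The lowest count of the 10 genes in any library was 98 (Nlrc5), while Klrd1 rested on 2 to 46 counts.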

Other observations

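H2-Q6 and H2-Q7, neighbouring Qa-2 heavy chain genes whose near-identical sequences make the division of reads between them uncertain, were chosen for mention after their values were seen. H2-Q7 read 4.58, 7.1 and 16.9 CPM with agonist and 33.9, 4.61 and 5.37 CPM with vehicle. H2-Q6 read 4.42, 4.56 and 9.55 CPM with agonist and 27.4, 2.8 and 4.82 CPM with vehicle. Both had vehicle replicate 1 first and agonist replicate 3 second, the order also seen for H2-K1, H2-D1, B2m, Psmb8, Psmb9 and Nlrc5. Their log2 fold changes were -0.92 ± 0.87 for H2-Q6 and -0.62 ± 0.89 for H2-Q7, neither called by edgeR, and without vehicle replicate 1 they turned to 0.70 and 0.93.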
